A study of Mus musculus with 18 samples.

Results

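The Fgf10–Fgfr2 signal that drives lung branching was followed through 10 genes, taken by symbol from the tables of 3 RNA-Seq experiments on embryonic mouse lungs. They are the ligands Fgf10, Fgf9 and Fgf7, the receptor Fgfr2, the ETS transcription factors Etv4 and Etv5, the Sprouty inhibitors Spry1, Spry2 and Spry4, and the Erk phosphatase Dusp6. All 10 were found among the 23420 rows of each table, and all 10 passed the filter on low values in each experiment. In the Vangl1/2 experiment (E12.5), the 3 control libraries were labelled Vangl1-/- and the 3 mutant libraries Vangl1-/-; Vangl2-/-, so both groups carry the Vangl1 mutation by their labels. The Vangl1 allele is a gene trap. In the mutants the floxed Vangl2 allele had been removed in all tissues with Sox2-Cre, and embryos of this mutant genotype have an open neural tube. In the Dermo1-Cre experiment (E12.5), Wnt5a was deleted in the mesenchyme, with 3 libraries of Wnt5af/+; Dermo1Cre controls and 3 of Wnt5af/f; Dermo1Cre mutants. In the Sox9-Cre experiment (E13.5), Wnt5a was deleted in the epithelium, with 3 libraries of Wnt5af/+; Sox9Cre controls and 3 of Wnt5af/f; Sox9Cre mutants. Dermo1-Cre is expressed from the Twist2 locus in the mesenchyme and Sox9-Cre from the Sox9 locus. In both Wnt5a experiments the controls also carried Cre and 1 floxed allele. Whole lungs were sequenced in bulk, so fewer cells of a type and less RNA per cell cannot be told apart. How many embryos entered a library is not given in the sources used here, and p-values measure only the spread between these libraries.

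Fgf10 is made by the distal mesenchyme of the embryonic lung and binds the IIIb isoform of Fgfr2 on the epithelium, where it drives the outgrowth of buds through the Ras–Erk cascade. Etv4 and Etv5 are transcription factors induced by that signal in the bud tips. Sprouty proteins and Dusp6 are induced by the same signal and dampen it, so their transcripts serve as readouts of Fgf activity as well as brakes. Fgf9 comes from the mesothelium and the epithelium and acts mainly on the mesenchyme, and Fgf7 is a second ligand of the IIIb isoform. The deposited counts are per gene and do not separate the isoforms of Fgfr2.

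For a view of the DNA beside these values, the 250 bases before the RefSeq transcription start (GRCm38.p6) are shown for the 2 ligands whose levels differed most in the Vangl1/2 experiment and for the Erk phosphatase Dusp6. The windows lie at chr13:118714449-118714698 (+ strand) for Fgf10, at chr14:58072436-58072685 (+ strand) for Fgf9 and at chr10:99262981-99263230 (+ strand) for Dusp6. No annotated exon of the GENCODE basic set overlaps them. The Fgf9 window lies in an intron of a longer Fgf9 transcript, and the Fgf10 window is crossed by the intron of the antisense transcript Gm16263. The letters CGGAA and their reverse complement, the core bound by many ETS factors, are in capitals.
Fgf10: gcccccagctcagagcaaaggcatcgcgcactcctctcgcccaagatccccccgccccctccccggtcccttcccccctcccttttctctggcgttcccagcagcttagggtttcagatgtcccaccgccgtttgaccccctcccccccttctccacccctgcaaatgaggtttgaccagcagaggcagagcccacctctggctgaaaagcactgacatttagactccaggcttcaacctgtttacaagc
Fgf9: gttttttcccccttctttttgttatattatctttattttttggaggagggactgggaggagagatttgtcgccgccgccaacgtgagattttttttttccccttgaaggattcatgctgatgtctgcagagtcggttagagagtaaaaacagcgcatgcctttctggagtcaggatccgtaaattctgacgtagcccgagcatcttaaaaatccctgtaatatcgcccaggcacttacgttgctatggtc
Dusp6: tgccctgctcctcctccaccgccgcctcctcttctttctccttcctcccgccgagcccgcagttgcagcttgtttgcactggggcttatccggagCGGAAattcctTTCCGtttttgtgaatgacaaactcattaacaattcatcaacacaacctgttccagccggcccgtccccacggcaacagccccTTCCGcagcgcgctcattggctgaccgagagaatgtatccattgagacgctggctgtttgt
The Dusp6 window held the core 3 times, once in the direction of transcription and the other two times on the opposite strand, and the nearest copy ended 56 bases before the start. RefSeq windows were at hand for 8 of the 10 genes, 9 windows in all because Etv5 has a pair of them. Only the Dusp6 window among these 9 held the core, which occurs in 25.2% of all 32851 windows of the same length. A match is a description of the letters and not of binding.

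Between 15945393 and 19814346 reads per library lay on genes. The deposited values are counts divided by a size factor and are called normalized counts. Of the targeted genes, Vangl2 followed its label in the Vangl1/2 experiment, where it fell from 339 ± 64.9 to 85.3 ± 5.01 normalized counts (mean ± SD, n = 3; limma adjusted p = 0.0318). Vangl1 transcripts were still counted in both groups, at 162, 219 and 114 normalized counts in controls and at 239, 274 and 242 in mutants, although both carry the label Vangl1-/-. The mutant libraries lay above the controls (log2 fold change 0.65, limma adjusted p = 0.233). Wnt5a was at 472, 430 and 489 normalized counts in Dermo1-Cre controls and at 317, 436 and 230 in mutants (limma adjusted p = 0.406). The library labelled mutant replicate 2 thus lay within the range of the controls. Sox9-Cre controls had 473, 453 and 426 and mutants 442, 362 and 448 normalized counts of Wnt5a, which overlapped (limma adjusted p = 0.9999). Counts per gene do not show whether the floxed or trapped part was transcribed. All 14 epithelium markers and all 13 mesenchyme markers were detected in each experiment. The fold change of a gene in the Vangl1/2 experiment followed its exon length (Spearman's rho = 0.70 across 13437 genes, which are not independent replicates). The change per doubling of length was negative in control replicates 1 and 3 (-0.178 and -0.215 on the log2 scale) and positive in control replicate 2 (0.066) and in the mutants (0.0929 to 0.14). The same rho was 0.25 in the Dermo1-Cre and -0.03 in the Sox9-Cre experiment. Values with this length trend removed from every library are therefore given beside those of the members in the Vangl1/2 experiment.

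Per exon length, the members kept a wide range of levels in control lungs. In RPKM (reads per kb of exons, scaled to the reads on genes of a library), Etv5 stood at 81.2 ± 4.84, Fgfr2 at 42.1 ± 0.674 and Dusp6 at 30.0 ± 0.467 in the Dermo1-Cre controls (mean ± SD, n = 3). Spry2 followed at 17.2 ± 1.62, Fgf10 at 13.2 ± 0.277, Etv4 at 10.5 ± 0.836 and Spry1 at 9.73 ± 0.635. Spry4 at 4.45 ± 0.125, Fgf9 at 2.27 ± 0.245 and Fgf7 at 0.731 ± 0.119 were lowest. Only Etv4 and Spry1 overlapped among neighbours of this order. The Sox9-Cre controls gave the same order, with Fgf10 also overlapping Etv4. In the Vangl1/2 controls Dusp6 (28.6 ± 2.68) ranked above Fgfr2 (27.6 ± 4.98), and Etv4 (17.6 ± 2.21) stood above Spry2 (14.4 ± 1.54) and Fgf10 (10.7 ± 2.86), and these neighbours overlapped, as did Dusp6 and Fgfr2, and Fgf10 and Spry1. Fgf7 was at an RPKM of 0.316 ± 0.0781 in the Vangl1/2 controls. The 3 tables were normalized separately and differ in genotype, and no test was made between them.

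**Figure D1:**
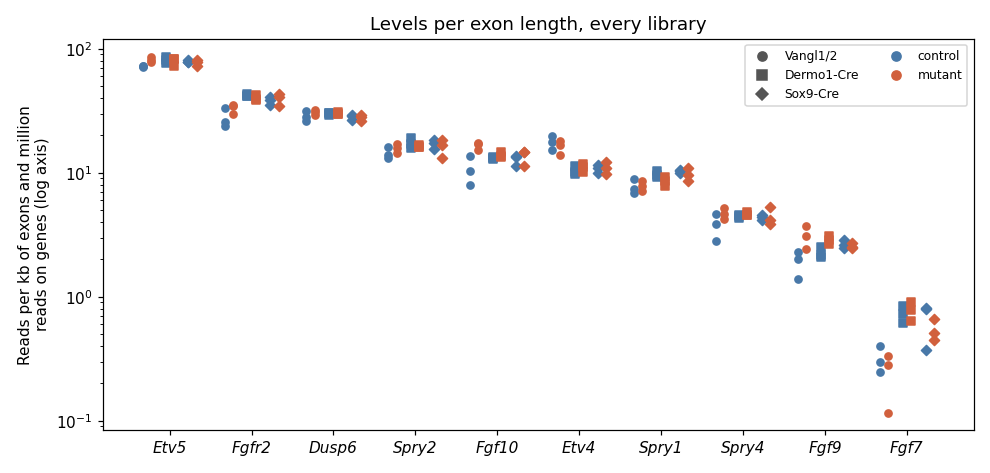
Level of each member per exon length in every library (RPKM, reads per kb of exons scaled to the reads on genes, log axis), with control libraries in blue and mutant libraries in orange and the 3 experiments as circles, squares and diamonds. Etv5 is highest in every group (72.3 to 81.9 on average) and Fgf7 is lowest.

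To ask whether loss of Vangl2 changed the signal, the mutants of the Vangl1/2 experiment were compared with their controls. Fgf10 and Fgf9 were 1.54 and 1.59 times as high in the mutants, but no member passed the test over all genes (0 of 10 at an adjusted p under 0.05, limma; 0.00699% of 14303 genes). At an unadjusted limma p under 0.05, 2 of 10 members were higher (12.0% of all genes) and none was lower (8.56%). Groups did not overlap for 3 of 10 members, all higher in mutants (13.6% of all genes), and for none that was lower (8.68%). These 3 were Fgf10, Fgf9 and Etv5. The median fold change of the 10 was 0.12 on the log2 scale, against -0.01 over all tested genes.

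Fgf10, the main mesenchymal ligand (chr13:118669791-118792115, + strand in GENCODE), was at 832, 1040 and 666 normalized counts in the 3 control libraries and at 1353, 1366 and 1187 in the 3 mutant libraries. Every mutant library lay above every control library, and the highest control was replicate 2, whose length trend lay with the mutants. The means were 846 ± 187 and 1302 ± 99.8 (SD, n = 3 each), a log2 fold change of 0.64 (SE 0.16, 95% interval 0.27 to 1.01; unadjusted p = 0.00394 and adjusted p = 0.233 by limma). The exact two-sided permutation p was 0.1, the smallest that 3 against 3 allows. With the length trend removed the log2 fold change was 0.57 (unadjusted p = 0.00286 and adjusted p = 0.511 by limma). Of the exon bases of Fgf10, 69 of 4114 are shared with exons of the antisense gene Gm16263, which is no row of the tables, and the strand setting of the counting is not given in the sources used here.

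Fgf9 (chr14:58070547-58112720, + strand), the mesothelial and epithelial ligand, was at 179, 191 and 127 normalized counts in the controls and at 269, 314 and 206 in the mutants. The lowest mutant library lay above the highest control library, which was again replicate 2. The log2 fold change was 0.66 (SE 0.21, 95% interval 0.18 to 1.15, unadjusted p = 0.0133 and adjusted p = 0.233 by limma). With the length trend removed it was 0.56 (unadjusted p = 0.0196 and adjusted p = 0.511 by limma). In that fit Fgf10 and Fgf9 were the members higher at an unadjusted p under 0.05, against 4.35% of all genes with a length. Fgf7 was far lower, at 18.6, 23.3 and 15.8 normalized counts in controls and at 7.04, 16.8 and 19.7 in mutants. These groups overlapped, and the 95% interval of the Fgf7 log2 fold change was wide, from -1.42 to 0.47 (log2 fold change -0.48, and -0.44 with the length trend removed).

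Control replicate 2 decided the calls. Without it, 4 of 10 members passed the adjusted threshold, namely Fgf10 (log2 fold change 0.80, limma adjusted p = 0.000316), Fgf9 (0.78, adjusted p = 0.0107), Fgfr2 (0.34, adjusted p = 0.00759) and Spry4 (0.44, adjusted p = 0.028). In that fit 43.2% of all 14303 genes passed as well, and the controls left were those with a negative length trend. When the length trend was also removed, an alternative chosen after the data were seen, 2 of 10 passed against 13.9% of 13437 genes. These were Fgf10 (0.71, limma adjusted p = 0.00339) and the inhibitor Spry2 (0.39, adjusted p = 0.0229). Fgf9 then had an adjusted p of 0.0728 and Fgfr2 of 0.391. Leaving out the other libraries in turn gave log2 fold changes of Fgf10 between 0.48 and 0.71.

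**Figure D2:**
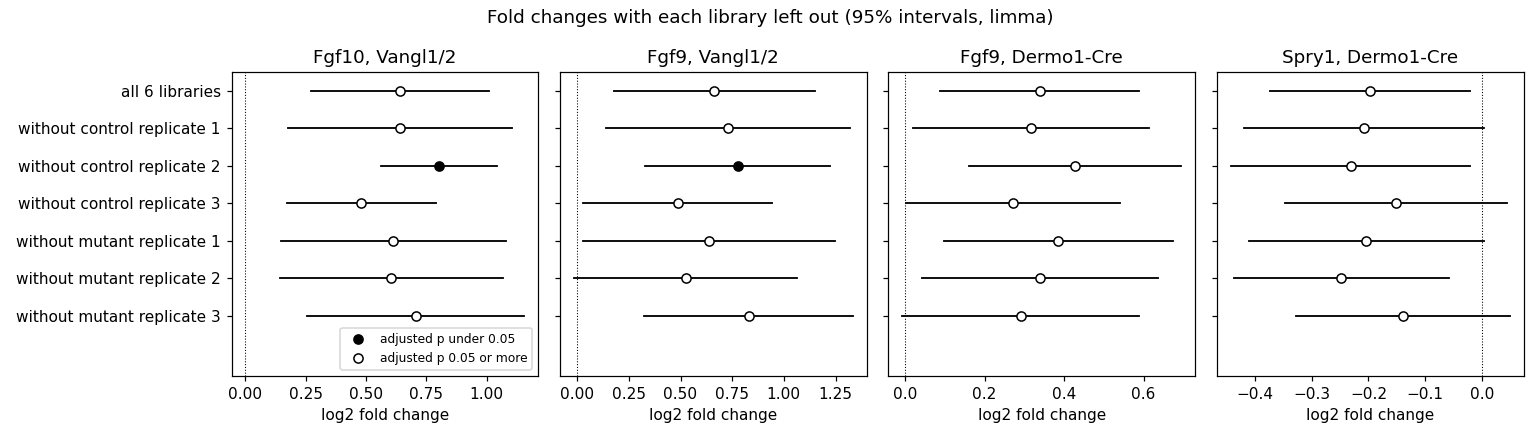
Log2 fold change (mutant over control) with its 95% interval for Fgf10 and Fgf9 in the Vangl1/2 experiment and Fgf9 and Spry1 in the Dermo1-Cre experiment, with all 6 libraries and with each left out, where filled points have a limma adjusted p under 0.05. The points for Fgf10 in the Vangl1/2 experiment lie between 0.48 and 0.80, and only those without control replicate 2 are filled.

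The receptor and the readouts had no unadjusted limma p under 0.05. Fgfr2, the epithelial receptor, was at 2597, 3140 and 2464 normalized counts in controls and at 3436, 2896 and 3308 in mutants, and the groups overlapped (log2 fold change 0.24, 95% interval -0.04 to 0.51). With the length trend removed the value was 0.07. Of its exon bases, 314 of 5115 are shared with Ctbp2 in the annotation. Etv5, the more abundant of the ETS factors, was at 5782, 5413 and 5824 normalized counts in controls and at 6098, 6155 and 6538 in mutants. The Etv5 groups did not overlap, with a log2 fold change of 0.14 (95% interval -0.06 to 0.34; limma adjusted p = 0.342), and 0.08 with the length trend removed. Etv4, its relative, was at 928, 676 and 867 normalized counts in controls and at 828, 757 and 632 in mutants (log2 fold change -0.15, 95% interval -0.50 to 0.20, and -0.03 with the length trend removed). Those groups overlapped.

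Among the inhibitors, Spry4 ranged from 271 to 412 normalized counts in controls and from 387 to 468 in mutants (log2 fold change 0.31, 95% interval -0.08 to 0.69, and 0.17 with the length trend removed). Spry2 ranged from 557 to 623 and from 564 to 671, with a log2 fold change of 0.09 (95% interval -0.16 to 0.34), and 0.26 with the length trend removed. Spry1 had nearly equal means, 434 ± 42.9 and 431 ± 37.0 normalized counts (SD, n = 3 each; log2 fold change -0.01, 95% interval -0.29 to 0.27, and 0.05 with the length trend removed). Of the Spry1 exon bases, 710 of 2906 are shared with the antisense gene Gm42922, which is no row of the tables. Dusp6 was at 1561 ± 216 and 1630 ± 63.0 normalized counts (log2 fold change 0.07, 95% interval -0.20 to 0.34, and 0.15 with the length trend removed). In none of these inhibitors were the groups apart.

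Fgf10 and Etv5 have nearly the same exon length (4114 and 4029 bases), so their ratio within a library is little touched by a length trend. The log2 ratio of Fgf10 to Etv5 was -2.79, -2.38 and -3.13 in the controls and -2.17, -2.17 and -2.46 in the mutants. The mutants averaged 0.50 higher, and the groups overlapped only through control replicate 2, which lay above mutant replicate 3. Relative to the summed mesenchyme markers, Fgf10 averaged 0.28 higher in the mutants on the log2 scale, and the groups overlapped. That summed level ranged from 63628 to 137510 normalized counts in controls and from 101690 to 127930 in mutants. Relative to the 6 mesothelium markers found, Fgf9 averaged 0.35 higher and the groups did not overlap, while relative to the epithelium markers it averaged 0.75 higher and the groups overlapped. Of the 5 mesothelium markers tested, 2 were higher at an unadjusted limma p under 0.05, and their part in the Fgf9 value was not tested. Etv5 relative to the summed epithelium markers averaged 0.23 higher, with groups that did not overlap. All these values relative to marker sums were taken with the length trend left in, and corrected ones were not computed. The log2 fold change of Etv5 itself was 0.08 with the trend removed. At the same threshold 4 of 5 smooth muscle markers were lower in these mutants, 1 of 14 epithelium markers was lower and none higher, and 2 of 13 mesenchyme markers were higher and 1 lower. Their part in the members' values was not tested.

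**Figure D3:**
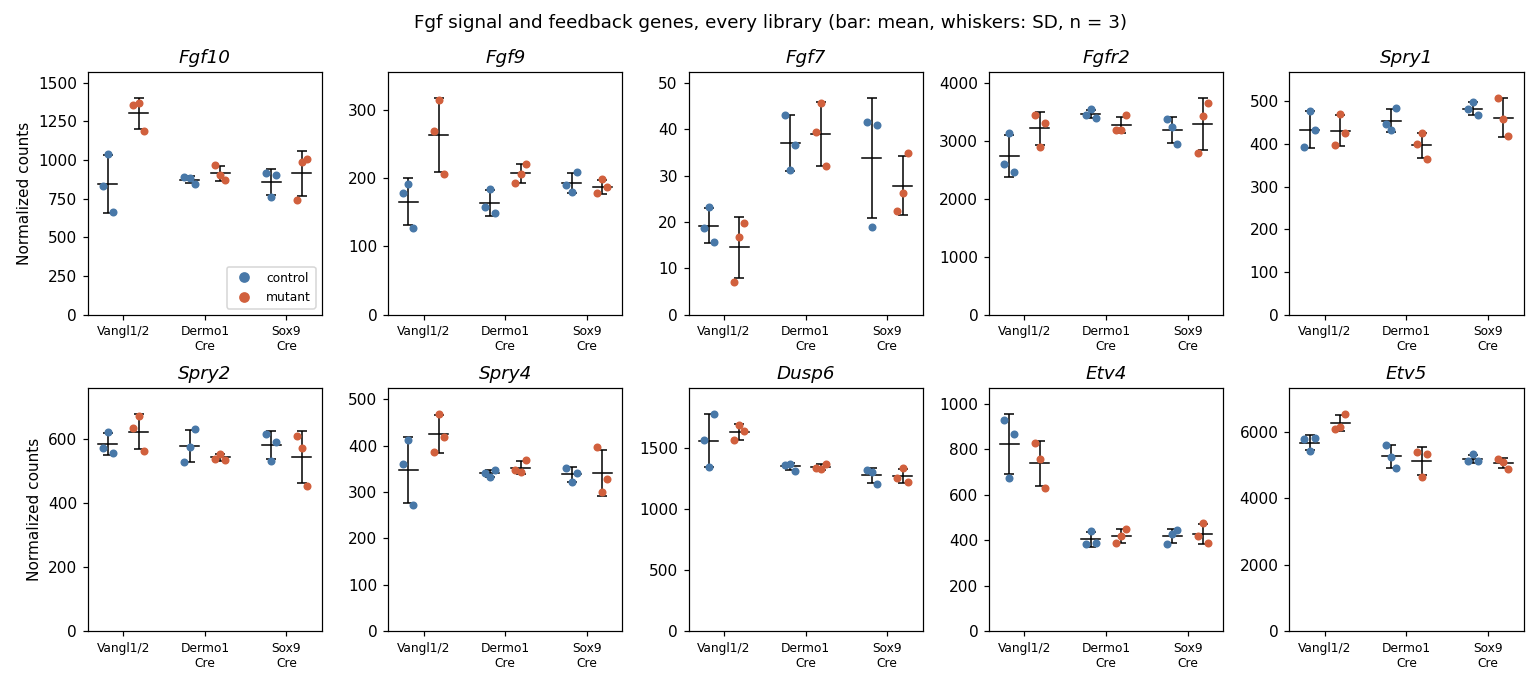
Normalized counts of each member in every library, with control libraries in blue and mutant libraries in orange, a bar at the mean and whiskers of 1 SD (n = 3 per group). The mutant libraries of Fgf10 in the Vangl1/2 experiment (1187 to 1366) lie above all controls (666 to 1040), while most other groups overlap.

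To ask whether mesenchymal Wnt5a affected the same genes, the Dermo1-Cre mutants were compared with their controls. Fgf9 was 1.26 times as high and Spry1 0.873 times as high in the mutants, and of the other 8 members Spry2 had the largest log2 fold change, -0.09. No member passed the test over all genes (0 of 10, limma; 0.0140% of 14277 genes). At an unadjusted limma p under 0.05, 1 of 10 was higher (5.42% of all genes) and 1 of 10 lower (4.76%). The groups did not overlap for the same pair, 1 higher (7.65% of all genes) and 1 lower (7.92%).

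Fgf9 was at 158, 185 and 149 normalized counts in the controls and at 194, 206 and 221 in the mutants. All mutant libraries lay above all controls. The log2 fold change was 0.34 (SE 0.11, 95% interval 0.09 to 0.59; unadjusted p = 0.0135 and adjusted p = 0.391 by limma), and the exact permutation p was 0.1. Spry1, the inhibitor, was at 447, 433 and 484 normalized counts in the controls and at 399, 425 and 365 in the mutants. All mutant libraries lay below all controls. The log2 fold change was -0.20 (SE 0.08, 95% interval -0.37 to -0.02; unadjusted p = 0.0321 and adjusted p = 0.462 by limma). Without mutant replicate 2, whose Wnt5a level lay with the controls, the log2 fold changes were 0.34 for Fgf9 and -0.25 for Spry1, and 0 of 10 members passed the adjusted threshold.

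Fgf10 was at 891, 882 and 845 normalized counts in the Dermo1-Cre controls and at 968, 900 and 873 in the mutants, which overlapped. Its log2 fold change was 0.06, and the 95% interval of -0.06 to 0.19 was narrower than in the Vangl1/2 experiment. Fgfr2 was at 3446, 3545 and 3400 normalized counts in controls and at 3190, 3186 and 3440 in mutants (log2 fold change -0.08, 95% interval -0.18 to 0.02). With the length trend removed its log2 fold change was -0.10 (95% interval -0.198 to -0.004; unadjusted p = 0.0436 and adjusted p = 0.517 by limma). In that fit Fgfr2 and Spry1 were the members lower at an unadjusted p under 0.05, against 4.54% of all genes with a length. Among the readouts, Etv5 was at 5264 ± 343 and 5114 ± 419 normalized counts and Etv4 at 404 ± 33.9 and 420 ± 30.6 (SD, n = 3 each). Their 95% intervals were -0.19 to 0.11 and -0.13 to 0.25 on the log2 scale. The Dusp6 means were 1349 ± 30.8 and 1346 ± 22.9, and its log2 fold change lay within -0.10 to 0.09. Spry2 (95% interval -0.25 to 0.07) and Spry4 (-0.10 to 0.21) overlapped between groups, as did Fgf7 (-0.43 to 0.57). Fgf7 had only 31.1 to 45.7 normalized counts per library.

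In these lungs 8 of 14 epithelium markers were lower at an unadjusted limma p under 0.05, and their sum ranged from 19544 to 20795 normalized counts in controls and from 18307 to 18443 in mutants. Relative to that sum, Spry1 averaged -5.47 ± 0.117 in controls and -5.53 ± 0.103 in mutants on the log2 scale (SD, n = 3), and the groups overlapped. Dusp6 and Spry4 relative to the same sum averaged 0.13 and 0.18 higher in the mutants, with groups that did not overlap. The log2 fold changes of Dusp6 and Spry4 themselves were -0.003 and 0.05, with overlapping groups. The sum itself was lower by a log2 value of -0.13, with groups apart. How many of all genes lay apart relative to a marker sum was not counted. Fgf9 averaged 0.47 higher relative to the epithelium markers, with groups apart, and 0.24 higher relative to the mesothelium markers, with groups that overlapped. Fgf10 relative to the mesenchyme markers averaged 0.20 higher, with groups apart, and 3 of the 13 mesenchyme markers were lower. The smooth muscle markers were lower for 5 of 5 genes and the neuron markers higher for 5 of 5 at the same threshold. The part of these cell types in the members' values was not tested.

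To ask whether epithelial Wnt5a mattered, the Sox9-Cre mutants were compared with their controls at E13.5. None of the members passed a threshold: 0 of 10 at an adjusted limma p under 0.05 (0% of 14293 genes), and 0 of 10 at an unadjusted p in either direction, where 1.08% of all genes were higher and 2.81% lower. None of the 10 had groups apart, against 4.42% of all genes higher and 4.36% lower. Fgf10 was at 915, 761 and 901 normalized counts in controls and at 744, 990 and 1006 in mutants. The mutants held both the lowest and the highest library. The log2 fold change was 0.08, with a 95% interval of -0.20 to 0.36. Fgf9 was at 190, 179 and 208 in controls and at 178, 198 and 187 in mutants (95% interval -0.27 to 0.19). Etv5 had the narrowest interval, -0.15 to 0.07, and Dusp6 followed with -0.14 to 0.13. For Fgfr2 (-0.19 to 0.27), Etv4 (-0.20 to 0.25), Spry1 (-0.26 to 0.12), Spry2 (-0.36 to 0.16) and Spry4 (-0.24 to 0.26) the intervals did not cover a change of 1.5-fold or more. The Fgf7 interval of -0.99 to 0.56 did.

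Relative to the summed mesothelium markers, Fgf9 averaged 0.21 higher in the Sox9-Cre mutants on the log2 scale, with groups apart. Relative to the epithelium markers its difference was -0.01, and the groups overlapped. The mesothelium sum ranged from 4661 to 5316 normalized counts in controls and from 3828 to 4655 in mutants, and 3 of 6 mesothelium markers were lower at an unadjusted limma p under 0.05. Relative to the mesenchyme markers, Fgf10 averaged 0.21 higher and the groups overlapped. The receptor, the ETS factors and the inhibitors relative to the epithelium markers averaged between -0.07 and 0.07, all with overlapping groups.

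**Figure D4:**
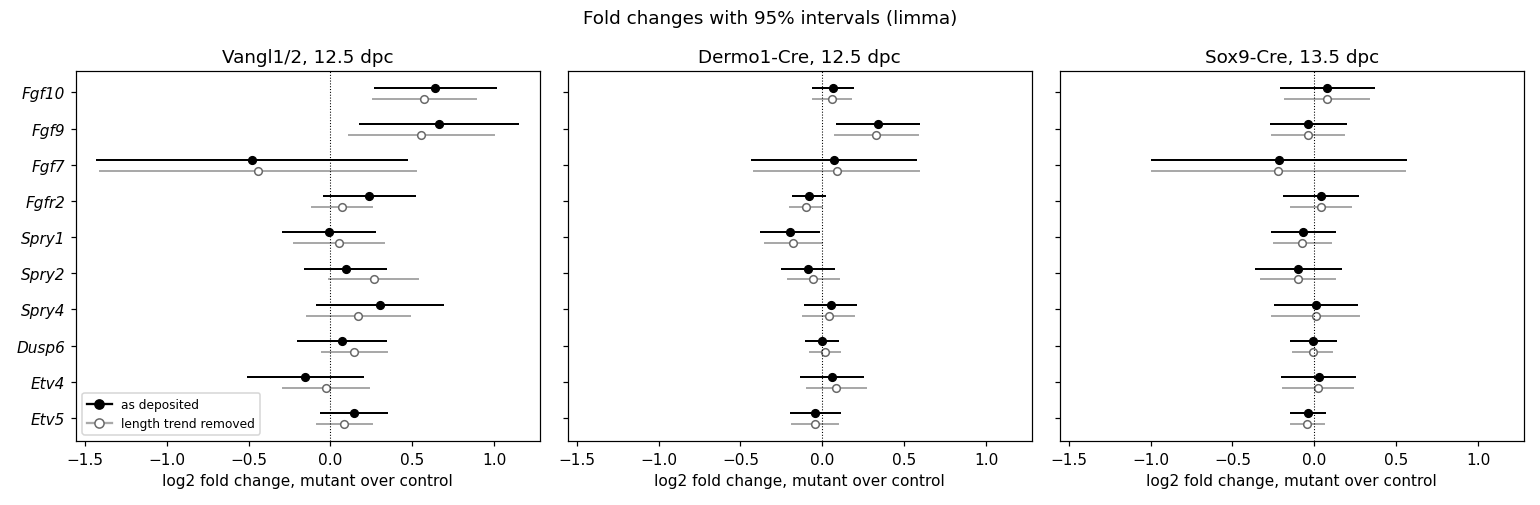
Log2 fold change (mutant over control) of each member with its 95% interval in the 3 experiments, as deposited (black) and with the transcript length trend removed from each library (gray). The black intervals of Fgf10 and Fgf9 in the Vangl1/2 experiment (0.27 to 1.01 and 0.18 to 1.15) and of Fgf9 and Spry1 in the Dermo1-Cre experiment leave out 0.

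The effects in the 3 experiments were not tested against each other. Each experiment had its own controls. Side by side, the log2 fold changes of Fgf9 were 0.66 in the Vangl1/2, 0.34 in the Dermo1-Cre and -0.04 in the Sox9-Cre experiment, and those of Fgf10 were 0.64, 0.06 and 0.08.

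The rest of the Fgf pathway was read from a list of 98 genes outside the members, covering ligands, co-receptors, heparan sulfate enzymes, the Ras–Erk cascade, downstream transcription factors, feedback genes and regulators of Fgf10, of which 7 also serve as cell type markers here. None passed the adjusted threshold in the 3 experiments. The list was chosen with earlier results of these data known, so its counts are a description and no independent test. Of the 83 tested in the Vangl1/2 experiment, 25 were higher (12.0% of all genes) and 0 lower (8.56%) at an unadjusted limma p under 0.05. Their median log2 fold change was 0.17. With the length trend removed, 18 were higher (4.35% of all genes with a length) and 2 lower (5.13%), and the median was 0.11. By role, 6 of 12 feedback genes, 5 of 12 regulators of Fgf10, 8 of 22 genes of the cascade, 4 of 15 heparan sulfate genes and 2 of 7 ligands were higher, while none of the 6 receptors and co-receptors and none of the 9 transcription factors were, against 12.0% of all genes. With the length trend removed, 5 feedback genes, 6 regulators of Fgf10, 3 genes of the cascade, 2 heparan sulfate genes and 2 ligands were higher, and 1 gene of the cascade and 1 heparan sulfate gene were lower, against 4.35% and 5.13% of all genes with a length.

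The 3 pathway genes with the largest log2 fold changes and groups apart in the Vangl1/2 experiment all belong to Hedgehog signaling, which restrains Fgf10 in the distal mesenchyme. Hhip, an antagonist of Hedgehog ligands, was at 825, 1723 and 811 normalized counts in controls and at 1742, 1764 and 2016 in mutants (log2 fold change 0.81, limma adjusted p = 0.233). Gli3, a transcription factor of the pathway, was at 1856, 2969 and 1646 in controls and at 3560, 3507 and 3687 in mutants (0.78). Ptch1, the receptor, was at 1521, 3148 and 1715 in controls and at 3327, 3350 and 3668 in mutants (0.77). In all 3 genes control replicate 2 lay close to the mutants. Their exon lengths are 9074, 8328 and 7803 bases, and with the length trend removed the log2 fold changes were 0.37, 0.38 and 0.40. The ranking that named these genes used the values as deposited. Shh, the Hedgehog ligand on the same list, had a log2 fold change of 0.06 as deposited, and its groups overlapped.

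In the Dermo1-Cre experiment 84 pathway genes were tested. At an unadjusted limma p under 0.05, 10 were higher (5.42% of all genes) and 5 lower (4.76%), and 6 and 5 with the length trend removed (4.89% and 4.54% of all genes with a length). Fgf5, a ligand, was at 25.1, 13.05 and 18.8 normalized counts in controls and at 36.3, 28.8 and 31.0 in mutants (log2 fold change 0.76, limma adjusted p = 0.435). Isl1, a transcription factor of motor and sensory neurons that is also found in the lung mesenchyme, had a log2 fold change of 0.72 (limma adjusted p = 0.288). Flrt1, a membrane protein that binds Fgf receptors, had 0.47 (adjusted p = 0.391). The neuron marker sum ranged from 348 to 624 normalized counts in controls. It was 758, 1641 and 1674 in mutant replicates 1 to 3. In the same order, Flrt1 was at 106, 85.3 and 83.9 and Isl1 at 162, 230 and 135. The part of the neuron markers in these values was not tested. On the lower side stood the heparan sulfate 6-O-sulfotransferase Hs6st1 (-0.22, adjusted p = 0.296), the kinase Rps6ka1 (-0.15, adjusted p = 0.458) and the Erk kinase Map2k2 (-0.15, adjusted p = 0.416).

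In the Sox9-Cre experiment 83 pathway genes were tested, and 1 was higher (1.08% of all genes) and 7 lower (2.81%) at an unadjusted limma p under 0.05. With the length trend removed, 1 was higher and 6 were lower (1.44% and 3.42% of all genes with a length). Fgfr3, another Fgf receptor, was at 730, 804 and 716 normalized counts in controls and at 817, 846 and 911 in mutants (log2 fold change 0.19, limma adjusted p = 0.9999). Fos, an immediate early gene downstream of Erk, was at 35.7, 27.9 and 31.9 in controls and at 12.7, 16.1 and 15.4 in mutants (-1.06, adjusted p = 0.9999). Sulf1, which removes sulfate groups from heparan sulfate, was at 4658, 3297 and 4178 in controls and at 2791, 3023 and 3138 in mutants (-0.43, adjusted p = 0.9999). Flrt1 was also lower, with -0.35. The cardiomyocyte markers were lower for 6 of 7 genes in these mutants at the unadjusted threshold, and their part was not tested.

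**Figure D5:**
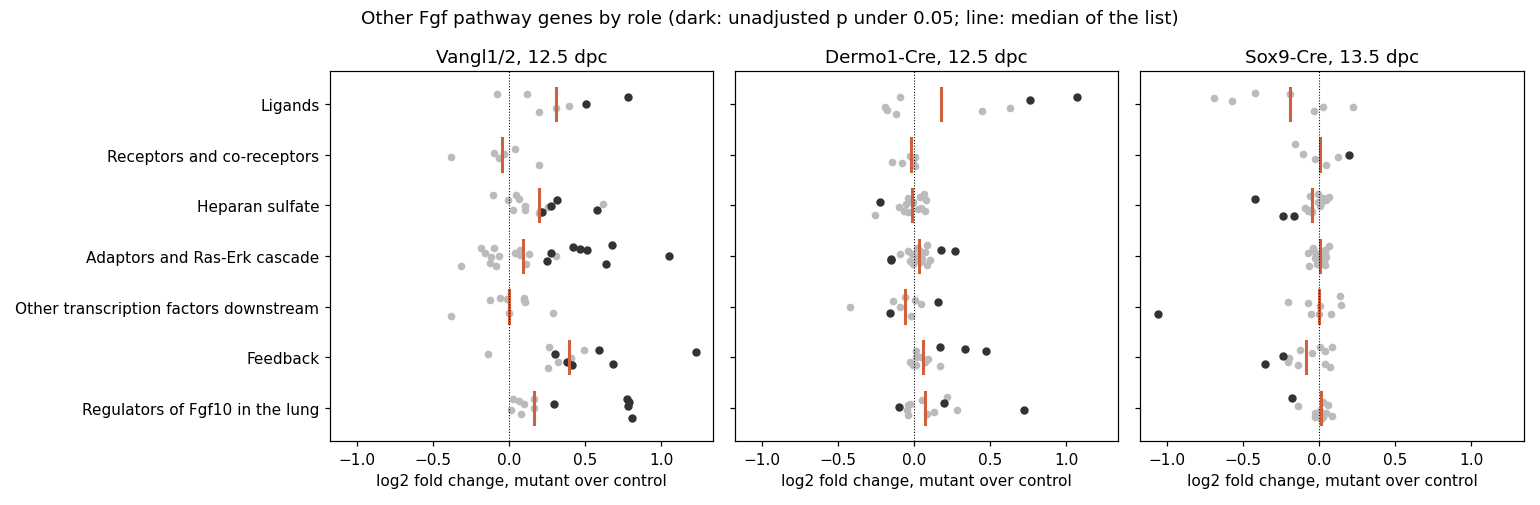
Log2 fold changes (mutant over control) of the tested pathway genes outside the members, by role, in the 3 experiments, with dark points for an unadjusted limma p under 0.05 and an orange line at the median of each role. The dark points of the Vangl1/2 experiment lie to the right of 0 (25 higher against 12.0% of all genes, 0 lower against 8.56%). In the Sox9-Cre experiment 7 of 8 lie to the left.

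The genes most like Fgf10 and Etv5 in their variation were sought among 13147 others, by Pearson's r over the 18 libraries after removal of the length trend and centring on each table's mean. These points share library preparation and depth within a table, and r is given as a description. Differences between controls and mutants were left in, and the experiments were not scaled to equal spread. An experiment in which a gene varied more therefore weighs more in r. For Fgf10 the log2 fold change with the length trend removed was 0.57 in the Vangl1/2, 0.06 in the Dermo1-Cre and 0.08 in the Sox9-Cre experiment. The closest to Fgf10 were Prrc2c (r = 0.914), Ammecr1l (0.910) and Zfp558 (0.910). Among the members Fgf9 came closest to Fgf10 (r = 0.77, rank 240), and Etv5 had an r of -0.06. The closest to Etv5 were Atp6v1h (r = 0.834), Cd93 (0.744) and Sec14l2 (0.728), and among the members Dusp6 (r = 0.59, rank 56).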

How the data were processed

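RNA of whole embryonic lungs was sequenced in 18 libraries of 3 experiments. Per the labels, reads were trimmed with Trim Galore, aligned to mm10 with HISAT2, counted with featureCounts and normalized with DESeq2 (no versions given). The authors deposited a signal per gene and library, counts divided by a size factor (0.952 to 1.07), from which whole reads were recovered. Columns of the authors' own fold changes and p-values were not used.

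Values were put on the scale log2(normalized count + 1), so fold changes of low genes are understated. Genes with at least 10 in at least 3 of 6 libraries were fitted with limma 3.58.1 (R 4.3.3, mean-variance trend), and p-values were adjusted by Benjamini-Hochberg at 0.05 over all tested genes. Single genes were also tested by an exact permutation test (scipy 1.17.1). edgeR 4.0.16 and DESeq2 1.42.0 were run on recovered reads as alternatives, with other scaling, filter, pseudocounts, a length trend (loess, span 0.3) removed, a replicate block and each library left out. The procedure was tested on simulated data. These held no length trend and no deviating library, so they do not show how the procedure behaves with either. Exon lengths and coordinates came from GENCODE release 21 (GRCm38, the mm10 assembly), and lengths existed for 93.9% to 94.1% of tested genes. The members and lists were chosen with earlier results of these data known. The text names all 10 members, and of the pathway list the 3 genes that were highest and the 3 lowest in each experiment among those with an unadjusted p under 0.05 and groups apart. It also names Shh and Tbx5 of the pathway list, and the 3 genes closest to Fgf10 and to Etv5. Same-numbered control and mutant libraries did not deviate together in every pair (correlations of -0.223 to 0.303), and the numbers were not taken as pairs. The ratios of Fgf9 to marker sums and of Fgf10 to Etv5 were added after the data were seen.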

Additional observations from a re-analysis of the deposited data

Results flagged for a closer look

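Among the pathway genes named above, Flrt1 and Hs6st1 had groups that did not overlap in opposite directions in different experiments. Tbx5, a regulator of Fgf10 on the same list, did so too. The log2 fold change of Tbx5 was 0.29 in the Vangl1/2 and -0.097 in the Dermo1-Cre experiment, each with groups apart. In the Sox9-Cre experiment it was 0.02, with overlapping groups. The difference between the experiments was not tested, and how many of all genes behaved this way was not counted. Flrt1, a membrane protein that binds Fgf receptors, was at 66.1, 59.2 and 71.3 normalized counts in Dermo1-Cre controls and at 106, 85.3 and 83.9 in mutants, with a log2 fold change of 0.4738. In the Sox9-Cre experiment it was at 92.2, 89.6 and 78.8 in controls and at 73.2, 66.4 and 63.6 in mutants, with a log2 fold change of -0.3539. Its log2 fold change in the Vangl1/2 experiment was 1.23 (unadjusted p = 0.0261 and adjusted p = 0.233 by limma), with 36.1, 89.5 and 25.2 normalized counts in controls and 73.5, 146 and 102 in mutants, which overlapped. At an unadjusted limma p under 0.05, 5 of 5 neuron markers were higher in the Dermo1-Cre mutants. In the Sox9-Cre mutants 1 of 5 was lower. The marker sum there was 1222, 434 and 483 normalized counts in mutants and 992, 936 and 1272 in controls. The part of the neuron markers in the Flrt1 values was not tested. Hs6st1, which adds 6-O-sulfate to heparan sulfate, had a log2 fold change of 0.1999 in the Vangl1/2 experiment (1421, 1494 and 1258 normalized counts in controls, 1526, 1668 and 1590 in mutants). In the Dermo1-Cre experiment it was -0.2233 (1436, 1277 and 1251 in controls, 1119, 1166 and 1104 in mutants). The Sox9-Cre value was -0.01, with overlapping groups. Groups lay apart and higher for 13.6% of all genes in the Vangl1/2 experiment. The fold changes of Tbx5, Flrt1 and Hs6st1 given here were taken with the length trend left in.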

How the results depend on the processing

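No member was called in the Dermo1-Cre and Sox9-Cre experiments under any alternative. In the Vangl1/2 experiment the number called was 0 under all alternatives but the removal of control replicate 2 (0 to 4 over the libraries left out) and its removal with the length trend removed (2). The number of genes called over all tested was 1 in the Vangl1/2, 2 in the Dermo1-Cre and 0 in the Sox9-Cre experiment, and 20, 100 and 9 with DESeq2. It ranged from 0 to 6183, from 0 to 54 and from 0 to 13 with each library left out, and was 1867 with the length trend removed and Vangl1/2 control replicate 2 left out. With the replicate number as a block, 0, 16 and 0 genes were called, and the block changed no call of a member. The control that correlated best with its own number was replicate 1 in the Vangl1/2 and Sox9-Cre experiments and none in the Dermo1-Cre experiment, so the numbers give no sign of a pairing in every pair.

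With the length trend removed, the log2 fold changes of Spry1 in the Vangl1/2 and of Dusp6 in the Dermo1-Cre experiment changed sign, to 0.05493 and 0.01695, and Spry1 was 0.1575 with control replicate 2 also left out. Small fold changes also changed sign with single libraries left out. Vangl1/2 ranges were -0.07831 to 0.06418 for Spry1 and -0.03283 to 0.1683 for Dusp6. In the Dermo1-Cre experiment they were -0.04611 to 0.2046 for Fgf7, -0.02235 to 0.007795 for Dusp6 and -0.09035 to 0.02675 for Etv5. In the Sox9-Cre experiment they were -0.005077 to 0.221 for Fgf10, -0.08863 to 0.01996 for Fgf9, -0.03878 to 0.1545 for Fgfr2, -0.1387 to 0.000545 for Spry1, -0.1835 to 0.02888 for Spry2, -0.1039 to 0.0962 for Spry4, -0.04506 to 0.02066 for Dusp6 and -0.05494 to 0.0924 for Etv4. The cause was not tested. Fgf7 rests on few reads, which limits its precision.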
